A study of Mus musculus with 8 samples.

Results

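The transcripts of 10 circadian clock genes were followed in mouse liver: Arntl, Clock, Npas2, Cry1, Per1, Per2, Per3, Dbp, Nr1d1 and Nr1d2. They were found by matching the Ensembl IDs of the count table to gene symbols on GRCm38, and all 10 were among the 49671 genes of the table. Of these, 9 passed the filter on low counts and were tested, and Npas2 did not. The libraries came from flash-frozen livers of mice after weaning, labelled C57BL/6 and given as C57BL/6N in the study's methods. Wild-type (WT) mice were compared with NT-KO mice, which are homozygous for a CRISPR/Cas9 deletion in Lbr that removes the usual start codon and part of the intron before it. Lbr encodes the lamin B receptor, a protein of the inner nuclear membrane with sterol reductase activity, and NT-KO cells are predicted to make a form without the N-terminal domains. The line goes back to 1 male founder that was crossed to C57BL/6N females. Each of the 4 groups (WT males, NT-KO males, WT females and NT-KO females) had 2 libraries, numbered 1 and 2 within each group, and the labels do not say that the numbers pair libraries. The hour at which the livers were taken and the feeding state are not given in the sources used here.

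Counts summed to 45020377 to 64396291 per library, and 1 count was worth 0.0155 to 0.0222 CPM (read counts scaled to a common library size) before further scaling. Levels are given as CPM scaled by the trimmed mean of M values (TMM). The deletion covers only the start of the Lbr coding sequence, so a count over the whole gene does not check it. Lbr stood at 8.66 and 7.08 CPM in WT males, 13.8 and 14.7 in NT-KO males, 8.04 and 7.54 in WT females, and 14.1 and 15.2 in NT-KO females. All 4 NT-KO libraries thus lay above all 4 WT libraries, with log2 fold changes of 0.86 ± 0.17 (SE) in males and 0.91 ± 0.17 in females, neither of which passed a false discovery rate (FDR) of 0.05 over all genes in edgeR's quasi-likelihood test (FDR 0.167 and 1.0). Of 7 hepatocyte markers 6 were matched, and none of these was at 0. Their summed level was 81397 to 121157 CPM, and Alb, which encodes serum albumin, was the most abundant. Since bulk tissue was sequenced, fewer cells of a type and less RNA per cell cannot be told apart in any level given here.

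The mammalian clock is a loop of transcription and translation that runs in nearly every cell, the hepatocyte included. ARNTL (BMAL1) pairs with CLOCK or its relative NPAS2 and switches on genes that carry E-boxes, among them the Per and Cry genes, whose proteins come back to block the pair. A side loop runs through the nuclear receptors REV-ERB alpha and beta (Nr1d1, Nr1d2), which repress Arntl, Clock and Npas2, while DBP drives a further set of output genes through D-boxes. In liver the Arntl group and the Dbp and Nr1d1 group are known to peak at nearly opposite times of day, and feeding time, glucocorticoids and body temperature all act on the phase. The members are taken here by role: the positive limb (Arntl, Clock, Npas2), the negative limb (Cry1 and the Per genes), and the REV-ERB genes with the output gene Dbp.

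Promoter sequence of the members was read from RefSeq windows on GRCm38.p6, which run from 250 bases before to 50 after a start site. Of the 10 members, 9 matched a window, with 13 windows in all, and Per2 did not. The windows were searched on both strands for the E-box CACGTG and its variant CACGTT, the D-boxes TTATGTAA, TTACGTAA, TTACATAA and TTATATAA, the REV-ERB/ROR elements ANTAGGTCA, TNTAGGTCA, ANTGGGTCA and TNTGGGTCA, the shorter AGGTCA (which the elements ending in AGGTCA contain), and the cAMP response element TGACGTCA with the shorter TGACG that it contains. The 4 windows shown are those that hold a CACGTG, a D-box or a REV-ERB/ROR element, and capitals mark it. They are the Arntl window at chr7:113207261-113207560 (+ strand), the Cry1 window at chr10:85185005-85185304 (- strand), the Per3 window at chr4:151044616-151044915 (- strand) and the Per1 window at chr11:69098699-69098998 (+ strand), each written 5′ to 3′ along the gene.
Arntl: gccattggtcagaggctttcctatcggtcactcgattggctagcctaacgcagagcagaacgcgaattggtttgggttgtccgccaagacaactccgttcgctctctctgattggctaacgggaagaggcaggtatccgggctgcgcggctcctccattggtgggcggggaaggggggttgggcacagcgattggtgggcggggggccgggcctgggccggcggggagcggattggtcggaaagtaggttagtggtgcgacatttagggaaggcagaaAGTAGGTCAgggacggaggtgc
Cry1: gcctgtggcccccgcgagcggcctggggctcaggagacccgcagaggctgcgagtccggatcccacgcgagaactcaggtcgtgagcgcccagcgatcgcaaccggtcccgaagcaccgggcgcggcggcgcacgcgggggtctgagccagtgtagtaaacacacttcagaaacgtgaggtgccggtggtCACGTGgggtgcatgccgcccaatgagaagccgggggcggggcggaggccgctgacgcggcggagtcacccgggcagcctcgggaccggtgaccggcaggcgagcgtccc
Per3: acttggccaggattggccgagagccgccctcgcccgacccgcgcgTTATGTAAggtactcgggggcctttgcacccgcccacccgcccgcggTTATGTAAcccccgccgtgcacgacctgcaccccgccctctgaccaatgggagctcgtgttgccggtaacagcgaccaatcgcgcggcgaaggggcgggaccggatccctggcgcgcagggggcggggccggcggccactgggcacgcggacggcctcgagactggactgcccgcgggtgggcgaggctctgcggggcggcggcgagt
Per1: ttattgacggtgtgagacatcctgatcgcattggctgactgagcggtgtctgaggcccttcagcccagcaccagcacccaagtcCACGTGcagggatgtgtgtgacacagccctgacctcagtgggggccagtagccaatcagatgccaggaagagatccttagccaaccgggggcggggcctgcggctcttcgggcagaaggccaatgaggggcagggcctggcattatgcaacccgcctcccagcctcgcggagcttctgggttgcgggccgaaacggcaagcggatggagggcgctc

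The Arntl window held a REV-ERB/ROR element that begins 28 bases after the start site, an element found in 3.2% of the 32851 windows. The E-box began 60 bases before the start site in Cry1 and 166 before it in Per1, and 7.15% of all windows held CACGTG. The Per3 window held 2 D-boxes of the same letters, 205 and 158 bases before the start site, where 1.59% of windows held any. CACGTT, present in 4.68% of windows, was found in Nr1d1, 28 bases before the start site, and in Cry1. The shorter AGGTCA was in 16.3% of windows and in those of Arntl, Clock, Per1 and Nr1d2, TGACG was in 20.8% and in those of Cry1 and Per1, and TGACGTCA, in 1.79% of windows, was in none of the 13. These are matches of letters in short windows and do not show that a protein was bound.

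Per kilobase of exon, the members covered a wide range. In male WT, mean levels ran from Nr1d2 (17.4 CPM per kb) through Per2 (14.5), Dbp (10.7), Per1 (6.88), Cry1 (5.72), Nr1d1 (5.31), Per3 (5.05), Clock (2.68) and Arntl (0.595) to Npas2 (0.014). In this order the libraries of Nr1d2 and Per2 overlapped, as did those of Per1 and Cry1, of Cry1 and Nr1d1, and of Nr1d1 and Per3, so 4 of 9 neighbouring pairs could not be ranked. Female WT had Dbp first (24.3 CPM per kb), then Nr1d2 (19.4), Per2 (13.5), Nr1d1 (12.4), Per3 (11.2) and Per1 (9.25), followed by Cry1 (2.84), Clock (1.07), Arntl (0.0839) and Npas2 (0.0323). There, 3 of 9 neighbouring pairs overlapped, namely Per2 with Nr1d1, Nr1d1 with Per3 and Per3 with Per1. Cry1, Clock, Arntl and Npas2 were the last 4 of the order in female WT and both NT-KO groups, while in WT males Cry1 stood above Nr1d1 and Per3, though its libraries overlapped those of Nr1d1.

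**Figure D1:**
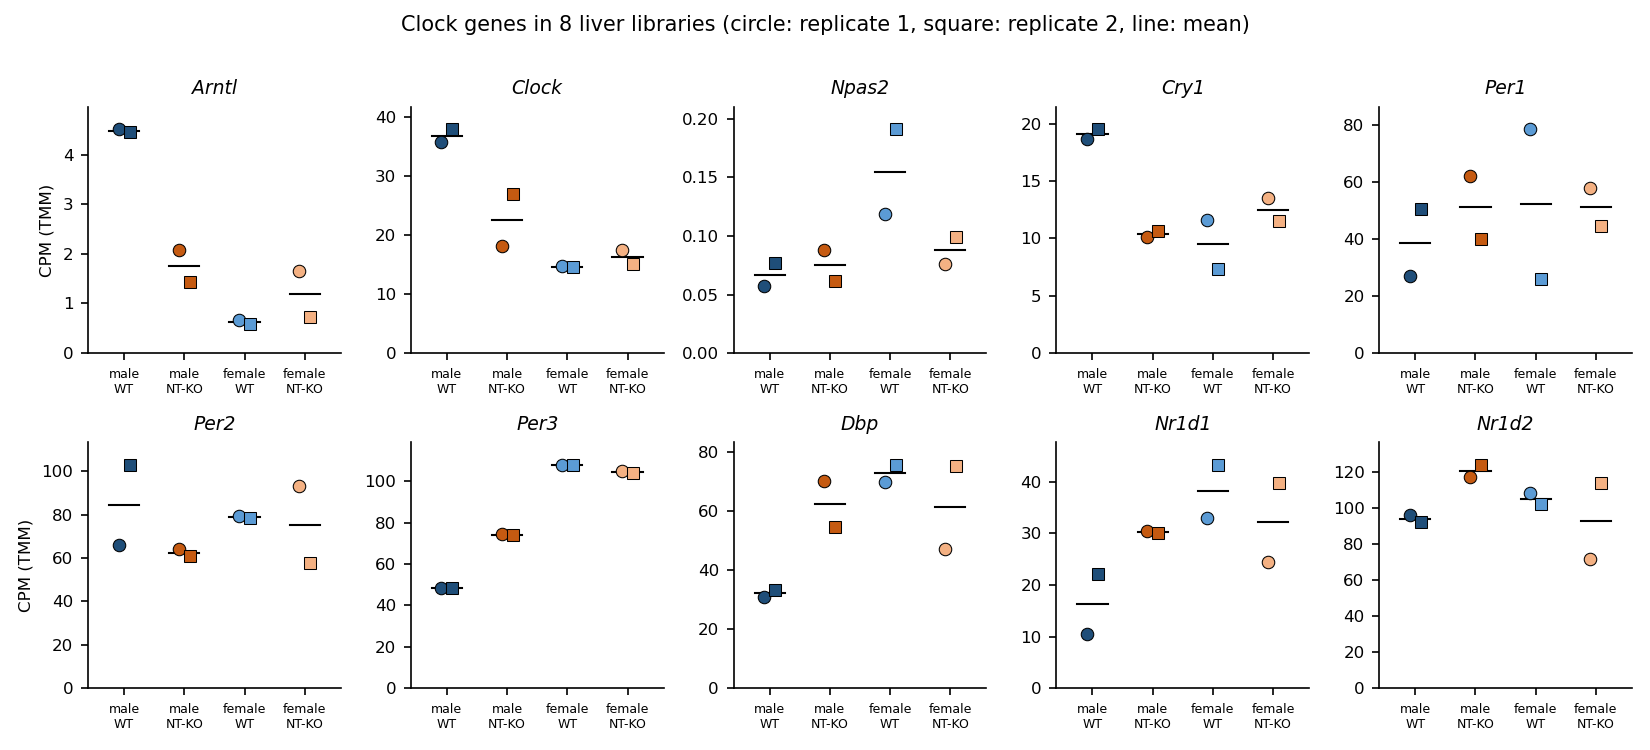
Levels of the 10 clock genes in TMM-scaled CPM (vertical axes, each starting at 0) in the 4 groups, with a circle for replicate 1, a square for replicate 2 and a line at the mean. In Arntl, Clock and Cry1 the male WT libraries stand above the 6 others, in Per3 and Dbp below them, and Npas2 stays under 0.2 CPM.

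In the positive limb, Arntl and Clock were higher in the male WT libraries than in all others, while Npas2 was near the floor everywhere. Arntl (ENSMUSG00000055116, chr7:113207465-113314126, + strand) encodes the obligate partner of CLOCK and NPAS2. It was at 4.51 and 4.45 CPM in WT males, 2.07 and 1.44 in NT-KO males, 0.67 and 0.59 in WT females, and 1.65 and 0.73 in NT-KO females. The male genotypes did not overlap, and the female ones did not either, but in the other order: male WT was the highest group and female WT the lowest. The log2 fold change, NT-KO vs WT, was -1.35 ± 0.39 (SE) in males (FDR 0.274) and 0.91 ± 0.41 in females (FDR 1.0) in edgeR's quasi-likelihood test. In counts these levels were small, from 34 in female WT 1 to 236 in male WT 1. The female value rested on female NT-KO 1: without it the value was 0.21, and without female NT-KO 2 it was 1.39.

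Clock (ENSMUSG00000029238, chr5:76209868-76304792, - strand), the DNA-binding partner of ARNTL, showed the same order of groups at higher counts. Its level was 35.8 and 37.9 CPM in WT males, 18.1 and 26.9 in NT-KO males, 14.8 and 14.5 in WT females, and 17.4 and 15.1 in NT-KO females. All 4 male libraries lay above all 4 female libraries, and male WT lay above male NT-KO. NT-KO vs WT, the log2 fold change was -0.71 ± 0.20 in males (quasi-likelihood FDR 0.273) and 0.15 ± 0.20 in females (FDR 1.0). The spread within male NT-KO was wide, and the male value was -1.03 without male NT-KO 2 and -0.45 without male NT-KO 1. The female value was 0.04 without female NT-KO 1 and 0.25 without female NT-KO 2.

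Npas2 (ENSMUSG00000026077, chr1:39193731-39363236, + strand), which can stand in for CLOCK, was barely counted. It had 3 to 12 counts per library, or 0.0573 to 0.191 CPM, highest in female WT 2. A level of 3 counts is the floor that counting error allows here, so no fold change is given.

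The negative limb was not uniform. Cry1 (ENSMUSG00000020038, chr10:85131700-85185064, - strand), which encodes the cryptochrome that represses CLOCK and ARNTL and whose transcript is known to peak later than those of the Per genes, was also highest in WT males. It was at 18.7 and 19.5 CPM in WT males, 10.1 and 10.6 in NT-KO males, 11.6 and 7.36 in WT females, and 13.5 and 11.5 in NT-KO females. Both male WT libraries lay above the other 6. Its log2 fold change was -0.88 ± 0.22 in males (quasi-likelihood FDR 0.237), and between -0.92 and -0.84 whichever library was left out, against 0.40 ± 0.22 in females (FDR 1.0), where it was 0.76 without female WT 1 and 0.11 without female WT 2.

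Per3 (ENSMUSG00000028957, chr4:151003652-151044665, - strand), the PERIOD gene whose window held the D-boxes, ran in the order opposite to Arntl and Clock and with little spread within groups. It was at 48.6 and 48.4 CPM in WT males, 74.3 and 73.9 in NT-KO males, 108 and 108 in WT females, and 105 and 104 in NT-KO females. The male WT pair was the lowest, the male NT-KO pair in between and the 4 female libraries the highest. For Per3 the log2 fold change was 0.61 ± 0.13 in males (quasi-likelihood FDR 0.203) and -0.05 ± 0.13 in females (FDR 1.0).

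Per1 and Per2 are PERIOD genes whose transcripts are known to respond within hours to glucocorticoids and other signals. Per1 had a wide spread within groups, and Per2 had one in WT males and NT-KO females only. Per1 (ENSMUSG00000020893, chr11:69095217-69109960, + strand) was at 27.0 and 50.5 CPM in WT males, 62.2 and 40.1 in NT-KO males, 78.4 and 25.8 in WT females, and 57.9 and 44.4 in NT-KO females. Its highest and lowest libraries were both female WT, so the spread within 1 group covered all others. Its log2 fold change was 0.40 ± 0.50 in males and -0.03 ± 0.50 in females, and single libraries moved both. The male value was 0.01 without male WT 1 and 0.92 without male WT 2, and the female value was 0.99 without female WT 1 and -0.62 without female WT 2. Per2 (ENSMUSG00000055866, chr1:91415982-91459324, - strand) was at 66.0 and 103 CPM in WT males, 64.1 and 60.7 in NT-KO males, 79.5 and 78.5 in WT females, and 93.1 and 57.6 in NT-KO females. Male NT-KO lay just under male WT 1 and far under male WT 2, with a log2 fold change of -0.44 ± 0.27 (quasi-likelihood FDR 0.574), which was -0.08 without male WT 2.

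Dbp and Nr1d1 were lowest in WT males, and Nr1d2 was lower there than in NT-KO males. Dbp (ENSMUSG00000059824, chr7:45705088-45710203, + strand), an output of CLOCK and ARNTL and itself an activator through D-boxes, was at 30.8 and 33.3 CPM in WT males, 70.1 and 54.5 in NT-KO males, 69.8 and 75.6 in WT females, and 47.2 and 75.3 in NT-KO females. Male WT lay under all 6 other libraries, and female NT-KO 1 was the lowest of those 6. The log2 fold change was 0.96 ± 0.23 in males (quasi-likelihood FDR 0.228) and -0.25 ± 0.23 in females (FDR 1.0), and the female value was 0.05 without female NT-KO 1.

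Nr1d1 (ENSMUSG00000020889, chr11:98767932-98775333, - strand), which encodes REV-ERB alpha, the repressor of Arntl, was at 10.6 and 22.1 CPM in WT males, 30.5 and 30.1 in NT-KO males, 32.9 and 43.3 in WT females, and 24.5 and 39.7 in NT-KO females. Male WT was again below the other 6 libraries, but its own pair differed more than 2-fold. The log2 fold change in males was 0.89 ± 0.36 (quasi-likelihood FDR 0.393), and leaving out male WT 1 or male WT 2 gave 0.45 or 1.52. In females it was -0.25 ± 0.35 (FDR 1.0). Nr1d2 (ENSMUSG00000021775, chr14:18204054-18239127, - strand), which encodes REV-ERB beta, varied least between groups in this limb: it was at 95.9 and 92.3 CPM in WT males, 117 and 124 in NT-KO males, 108 and 102 in WT females, and 71.8 and 114 in NT-KO females. Its log2 fold change was 0.35 ± 0.22 in males (FDR 0.575) and -0.18 ± 0.22 in females (FDR 1.0).

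The exons of 3 members overlap a gene on the other strand, and the sources used here do not say whether reads were counted by strand. Of the exonic bases of Dbp, 18.0% are shared with Sphk2, and of those of Nr1d1, 8.55% are shared with Thra, while Arntl shares 0.439% with Gm45355, all 3 named after their values were seen. Sphk2 was at 33.9 and 30.2 CPM in WT males and 41.0 and 32.1 in NT-KO males, with a male log2 fold change of 0.19. Thra was at 6.48 and 4.83 CPM in WT males and 8.79 and 8.63 in NT-KO males, with a male log2 fold change of 0.62 (FDR 0.298). The part of the overlap in the values of Dbp and Nr1d1 was not tested.

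**Figure D2:**
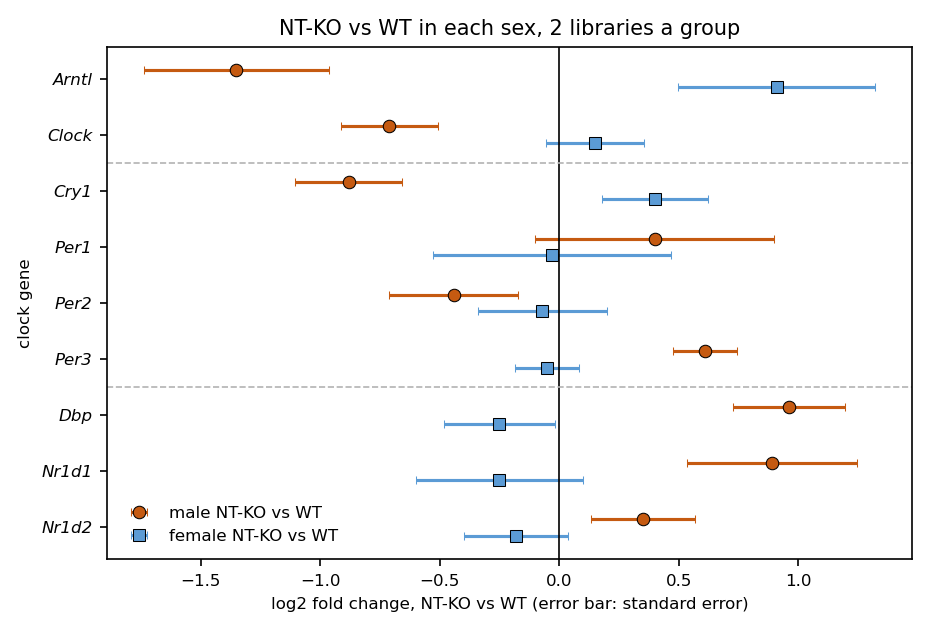
Log2 fold change, NT-KO vs WT (horizontal axis), of the 9 tested clock genes in males (circles) and females (squares), with bars of 1 standard error and dashed lines between positive limb, negative limb, and REV-ERB and output genes. In males Arntl, Clock and Cry1 lie left of 0 and Per3, Dbp and Nr1d1 right of it, while the female values lie nearer to 0 and, except for Per2, on the other side.

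Counted over the 9 tested members, no gene passed the FDR of 0.05 for NT-KO vs WT in males by the quasi-likelihood test, where 0.0152% of all 13117 genes did. At an unadjusted p under 0.05 there were 6 members in males, 3 higher (Per3, Dbp, Nr1d1) and 3 lower (Arntl, Clock, Cry1), where 11.5% of all genes passed. The libraries of male WT and male NT-KO did not overlap in 8 of the 9 members, 4 lower and 4 higher in NT-KO, where 38.9% of all genes did not overlap. Other tools drew the line elsewhere. edgeR's likelihood ratio test called 1 member in males (Dbp, FDR 0.0274), with 1.94% of all genes called, and DESeq2 called 3 (Dbp, FDR 0.0125, Per3, 0.0182, and Cry1, 0.0391), with 2.35% called. Without the filter on low counts the quasi-likelihood test called 5 (Arntl, Clock, Cry1, Dbp and Nr1d1), with 3.09% of 29724 genes called. In males that fit gave SEs of 0.219 for Per1 and 0.224 for Per3, against 0.5 and 0.135 with the filter. Its SEs thus followed the spread of each gene's own libraries less, which limits its calls here and below.

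In females no member passed the FDR, where 0.00762% of all genes did, and none passed an unadjusted p under 0.05, where 1.55% did. DESeq2 and the likelihood ratio test called none either. The female genotypes did not overlap in 3 members, with Arntl and Clock higher and Per3 lower in NT-KO, against 26.4% of all genes. The median log2 fold change of the members was 0.35 in males and -0.05 in females, and that of all tested genes was 0.0121 and 0.00117. The member median hides opposite limbs, since it was -1.03 for Arntl and Clock and 0.89 for Dbp, Nr1d1 and Nr1d2 in males, and 0.53 and -0.25 in females.

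The difference between the sexes in the NT-KO vs WT log2 fold change was tested directly as an interaction contrast. It was 2.26 ± 0.57 for Arntl, 1.28 ± 0.31 for Cry1, 0.86 ± 0.29 for Clock, -0.66 ± 0.19 for Per3 and -1.20 ± 0.33 for Dbp, each female minus male, and these 5 had an unadjusted p under 0.05, as did 7.2% of all genes. No member passed the FDR (0.573 for Arntl, Cry1, Per3 and Dbp), where 0.0152% of all genes did, and DESeq2 and the likelihood ratio test called none. Without the filter on low counts 4 passed (Arntl, Cry1, Dbp and Nr1d1), where 1.86% of all genes did. In 3 members (Arntl, Clock and Per3) the genotypes did not overlap in either sex and differed in opposite directions, against 6.66% of all genes.

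Between the sexes some members did pass. Averaged over both genotypes, Arntl and Clock were lower and Per3 higher in females by the quasi-likelihood test at the FDR of 0.05. Thus 3 of 9 members passed, against 7.84% of all genes. The sexes were not tested within each genotype, and their differences there were unequal. For Arntl, mean levels were 4.48 CPM in WT males and 0.631 in WT females, but 1.76 and 1.19 in NT-KO males and females. In the same order Clock was at 36.8 and 14.6, then 22.5 and 16.2 CPM, and Per3 at 48.5 and 108, then 74.1 and 104 CPM. The log2 fold change, female vs male, was -1.70 ± 0.29 for Arntl (FDR 0.011), -0.90 ± 0.14 for Clock (FDR 0.00879) and 0.82 ± 0.10 for Per3 (FDR 0.00184). Dbp (0.58 ± 0.17, FDR 0.0691), Nr1d1 (0.65 ± 0.25, FDR 0.141) and Cry1 (-0.37 ± 0.16, FDR 0.173) did not pass, and DESeq2 called 5 members, adding Dbp and Nr1d1, with 14.1% of all genes called. The likelihood ratio test called 4, adding Dbp (FDR 0.0226), with 13.4% of all genes called. Scaling by library size only also called 4, with 11.6%, and the fit without the filter called 5, with 9.16% of 29724 genes. Single libraries decided some of these calls: without female WT 2 Arntl was at an FDR of 0.052, without female NT-KO 1 Dbp was at 0.0343, and without male WT 2 Nr1d1 was at 0.044. All male libraries lay on 1 side of all female libraries in only Clock and Per3, 2 of 9 members, against 16.1% of all genes. In Dbp both male NT-KO libraries lay within the female range. In Arntl only male NT-KO 2 (1.44 CPM) did, under female NT-KO 1 (1.65 CPM), while male NT-KO 1 (2.07 CPM) lay above all female libraries.

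A limb difference was computed for each library as the mean log2 CPM of Per1, Per2, Per3, Dbp, Nr1d1 and Nr1d2 minus that of Arntl, Clock and Npas2, leaving out Cry1, whose transcript peaks later, and is given as a description without a test. It was 3.90 and 4.24 in WT males, 5.26 and 5.18 in NT-KO males, 5.97 and 5.66 in WT females, and 5.32 and 5.84 in NT-KO females. Male WT lay lowest and male NT-KO next, just under the females, whose genotypes overlapped. The change from WT to NT-KO was 1.15 in males and -0.23 in females, with a pooled SD between replicates of 0.25. With Cry1 counted among the negative limb it was 0.96 in males and -0.15 in females. Since Npas2 was near the floor, the same was computed without it, a choice made after seeing the data, which gave 1.53 in males and -0.59 in females. Without female NT-KO 1 the female change was 0.02.

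**Figure D3:**
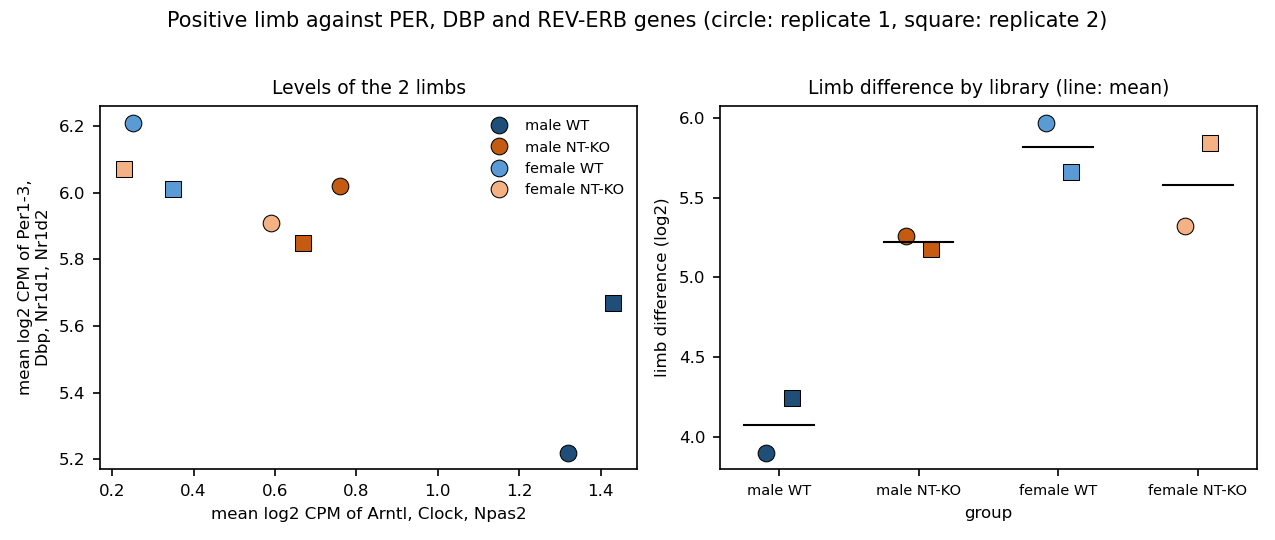
Left, mean log2 CPM of the positive limb (horizontal axis) against that of the Per, Dbp and REV-ERB genes (vertical axis) in each library; right, their difference by group with a line at the mean, on an axis that does not start at 0. The male WT libraries, at 3.90 and 4.24, lie apart from the other 6, which lie between 5.18 and 5.97.

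Single libraries also stood apart within the females. In female NT-KO 1, Arntl was at 1.65 CPM, against 0.59 to 0.73 in the 3 other female libraries, while Dbp (47.2 against 69.8 to 75.6), Nr1d1 (24.5 against 32.9 to 43.3) and Nr1d2 (71.8 against 102 to 114) were lower. Clock (17.4 against 14.5 to 15.1), Cry1 (13.5 against 7.36 to 11.6) and Per2 (93.1 against 57.6 to 79.5) were higher, and Per3 (105 against 104 to 108) lay among the others. In Arntl, Clock, Cry1, Dbp and Nr1d1 this library thus lay between the other females and male WT.

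Among 17 other clock genes, 16 were tested and Arntl2, a relative of Arntl, was not. Arntl2 was at 0 in all 4 male libraries, where 3 counts would be 0.0573 to 0.0767 CPM, and at 0.0497 to 0.97 CPM in females. None passed the FDR for NT-KO vs WT in either sex, and their median log2 fold change was 0.04 in males and 0.03 in females. At an unadjusted p under 0.05 there were 2 in males, both higher, where 11.5% of all genes passed, and none in females, where 1.55% did. The same shares of all genes stand beside the counts at this p in each list that follows. Fbxl21, a ligase subunit that acts on cryptochromes, was at 3.10 and 3.17 CPM in WT males, 4.89 and 4.56 in NT-KO males, 10.5 and 8.08 in WT females, and 8.69 and 7.78 in NT-KO females. It was the gene of this list that passed the FDR between the sexes, where 7.84% of all genes passed. It was higher in females with a log2 fold change of 1.18 (FDR 0.00204), and its order of groups matched that of Per3. The share of 7.84% also stands beside the calls between the sexes in each list that follows.

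Tef, a relative of DBP that binds the same D-box, was at 219 and 205 CPM in WT males, 317 and 263 in NT-KO males, 304 and 302 in WT females, and 249 and 320 in NT-KO females. As with Dbp, male WT was lowest and female NT-KO 1 the lowest of the rest of the females, and the male log2 fold change was 0.45 (FDR 0.426). Nfil3, the repressor that competes at D-boxes, was at 23.6 and 31.7 CPM in WT males and 23.9 and 13.8 in NT-KO males, with a log2 fold change of -0.55 (FDR 0.556). Ciart, a repressor of CLOCK and ARNTL, was at 19.6 and 29.2 CPM in WT males, 43.7 and 30.0 in NT-KO males, 54.2 and 25.9 in WT females, and 37.4 and 42.5 in NT-KO females. Its female WT pair differed widely, as did that of Per1, with replicate 1 the higher in both.

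**Figure D4:**
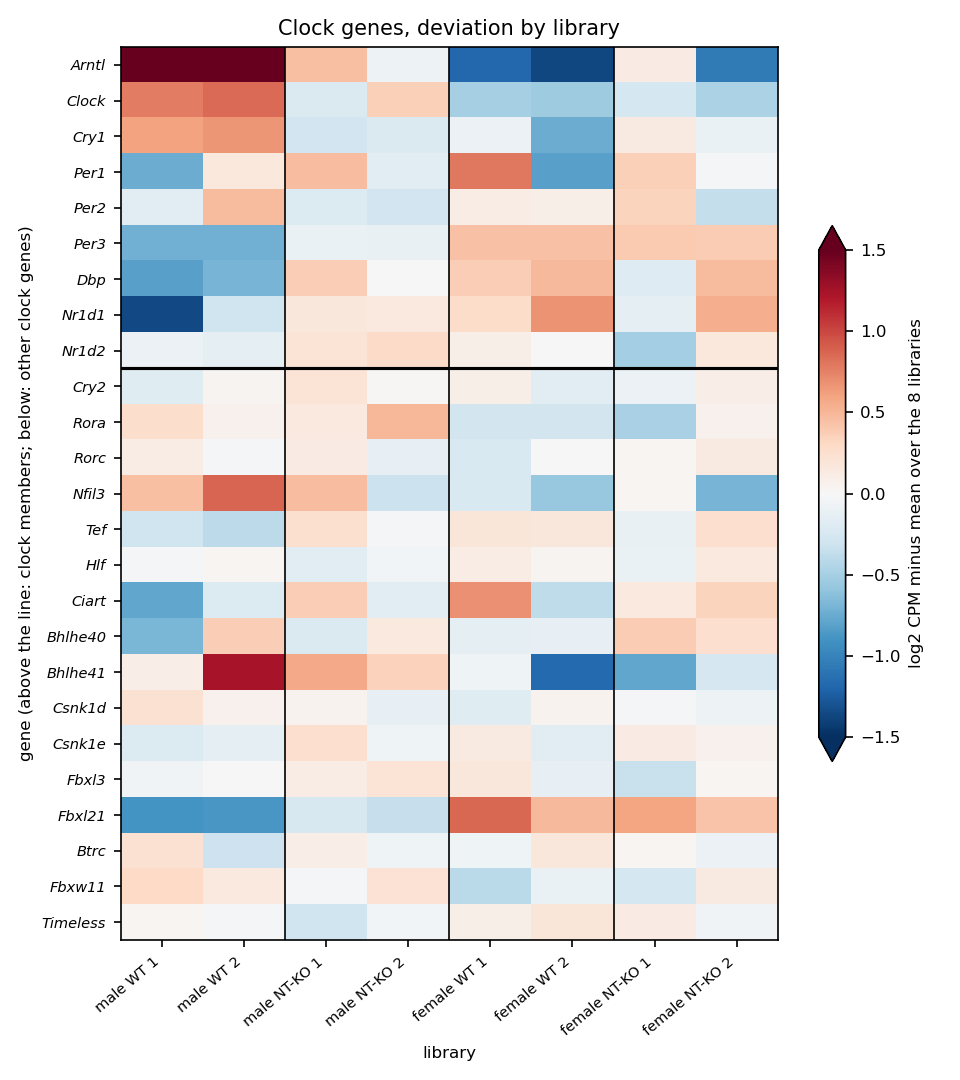
Deviation of log2 CPM from the gene's mean over the 8 libraries (colour, red above and blue below) for the 9 tested clock members (above the line) and 16 other tested clock genes (below it), by library. The 2 male WT columns are red for Arntl, Clock and Cry1 and blue for Per3, Dbp, Nr1d1 and Fbxl21, while most of the other clock genes show little colour, and colours end at 1.5 on either side.

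Of 19 rhythmic output genes of liver, all were tested and none passed the FDR for NT-KO vs WT. In males 3 were higher and 2 lower at an unadjusted p under 0.05, in females 1 was higher, and the median log2 fold change was -0.02 and -0.04. Upp2, a uridine phosphorylase, was at 542 and 495 CPM in WT males, 746 and 858 in NT-KO males, 832 and 739 in WT females, and 717 and 763 in NT-KO females. Male WT was below all other libraries, as for Dbp, with a male log2 fold change of 0.63 (FDR 0.277). Cyp7a1, the rate-limiting enzyme of bile acid synthesis, was at 129 and 130 CPM in WT males and 164 and 392 in NT-KO males, with a log2 fold change of 1.11 (FDR 0.344) that came mainly from male NT-KO 2. Slc45a3 (-0.88, FDR 0.408 in males) and Lonrf3 (0.84, FDR 1.0 in females) were the others of smallest p. Elovl3, a fatty acid elongase, was the 1 gene of the 19 that passed the FDR between the sexes, where 7.84% of all genes passed. It was lower in females with a log2 fold change of -3.55 (FDR 9.7e-05). Its levels were 21.4 to 44.2 CPM in males and 2.72 to 3.31 CPM in females.

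Signals that are known to act on the liver clock were read from 4 more lists. Of 9 temperature-responsive genes 8 were tested, and none passed the FDR for NT-KO vs WT. At an unadjusted p under 0.05, the 6 tested heat shock and chaperone genes were all lower and 1 gene was higher in NT-KO males, and none passed in either direction in females. Over all 8 tested genes of the list the median log2 fold change was -1.33 in males and -0.04 in females. Hsph1, a co-chaperone of HSP70, was at 126 and 218 CPM in WT males, 39.7 and 52.5 in NT-KO males, and 49.9 to 60.8 in the 4 female libraries, with a male log2 fold change of -1.90 (FDR 0.123). Hspa8, the constitutive HSP70, was at 1673 and 2337 CPM in WT males, 922 and 946 in NT-KO males, and 1078 to 1322 in females, with a male log2 fold change of -1.10 (FDR 0.167). The male WT libraries were above all others in both.

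Hspa1b, the inducible HSP70, was at 29.2 and 80.2 CPM in WT males, 9.82 and 9.78 in NT-KO males, and 4.73 to 7.60 in females. It was the gene of this list that passed between the sexes (log2 fold change -1.84, FDR 0.00932), and since Hspa1a is a near-identical copy its counts are uncertain. Hsp90aa1 had a male log2 fold change of -1.78 (FDR 0.177). Cirbp, a cold-inducible RNA-binding protein named after its values were seen, was the gene that was higher: it was at 12.8 and 9.91 CPM in WT males, 32.8 and 18.4 in NT-KO males, and 20.0 to 24.1 in females (male log2 fold change 1.17, FDR 0.21). Rbm3, the other cold-inducible gene of the list, was at 37.9 and 39.1 CPM in WT males, 45.9 and 46.4 in NT-KO males and 32.2 to 37.2 in females (male log2 fold change 0.26, FDR 0.491). The male WT libraries were thus lowest in Cirbp, as in Dbp, but not in Rbm3, and highest in Hsph1, as in Arntl. The part of temperature or heat shock in the clock values was not tested.

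Of 10 glucocorticoid-responsive genes, all were tested and none passed the FDR in any of the 4 comparisons, and 1 was lower in NT-KO males at an unadjusted p under 0.05. That gene was Mt2, a metallothionein, at 0.688 and 25.9 CPM in WT males, 1.70 and 0.867 in NT-KO males, and 1.89 to 29.7 in the 4 female libraries. Its pair in WT males alone spanned most of the range of all libraries. Fkbp5, a co-chaperone of the glucocorticoid receptor, was at 180 CPM in female WT 1 and 39.3 in female WT 2, and at 49.5 to 76.1 in the other 6 libraries. Sgk1 and Lcn2 had male log2 fold changes of 0.46 (FDR 0.47) and -2.53 (FDR 0.479). The value of Lcn2 rested on male WT 2, at 86.1 CPM, since male WT 1, at 3.99, lay between the male NT-KO libraries, at 3.37 and 12.2.

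Tsc22d3 (GILZ) and Noct, which encodes the rhythmic nocturnin, were named after their values were seen. Tsc22d3 was at 67.0 and 155 CPM in WT males, 145 and 91.8 in NT-KO males, 156 and 75.8 in WT females, and 153 and 86.3 in NT-KO females. In Noct the values were 35.5 and 68.1, 129 and 88.5, 130 and 54.6, and 107 and 66.4 CPM in the same order of groups. The pairs within groups differed widely in both genes. Noct, one of the 3 rhythmic outputs higher in NT-KO males at an unadjusted p under 0.05, had a male log2 fold change of 1.07 (FDR 0.432) with no overlap between the male genotypes.

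**Figure D5:**
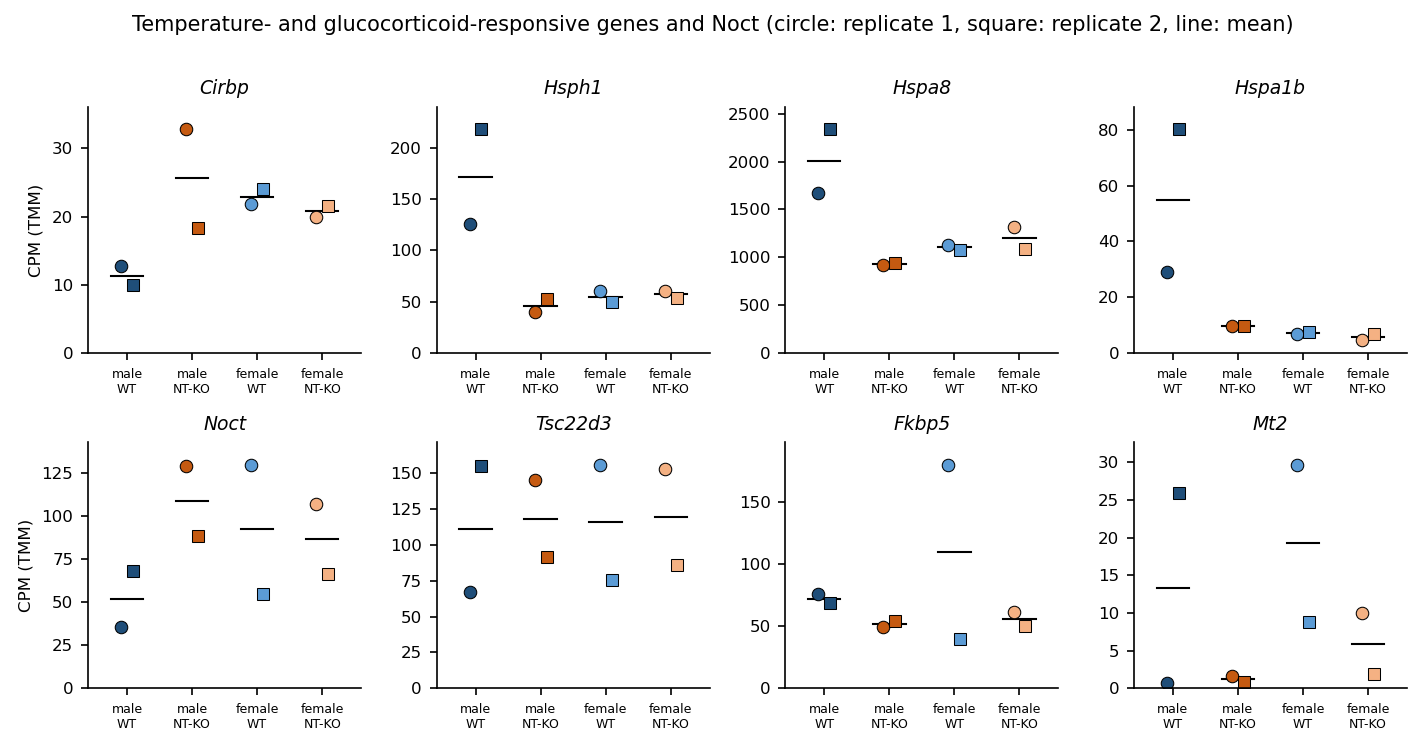
Levels in TMM-scaled CPM (vertical axes, each starting at 0) of 4 temperature-responsive genes (top) and of Noct and 3 glucocorticoid-responsive genes (bottom) in the 4 groups, with a circle for replicate 1, a square for replicate 2 and a line at the mean. The male WT libraries stand apart from the others in the top row. In the bottom row many pairs within a group differ widely, as in Tsc22d3, at 67.0 and 155 CPM in WT males. In Fkbp5 only the female WT pair does so, at 180 and 39.3 CPM.

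Of 8 fasting genes, 3 were higher in NT-KO males at an unadjusted p under 0.05, none passed the FDR for NT-KO vs WT in either sex, and the median log2 fold change was 0.34 in males and -0.05 in females. Pdk4, which spares glucose by blocking pyruvate dehydrogenase, was at 1.49 and 1.74 CPM in WT males, 2.51 and 4.68 in NT-KO males, and 4.51 to 6.16 in females. Male WT was lowest here too (male log2 fold change 1.16, FDR 0.285), and Pdk4 was higher in females than in males over both genotypes (1.13, FDR 0.0276). Fgf21, a fasting hormone, had a male log2 fold change of 1.81 (FDR 0.293) at 0.256 to 1.59 CPM in the male libraries, and G6pc, of glucose release, 1.01 (FDR 0.364). Angptl4, an inhibitor of lipoprotein lipase, had a female log2 fold change of -0.55 (FDR 1.0).

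Of 8 feeding genes, 1 was higher at an unadjusted p under 0.05 in each sex (Srebf1 in males, 0.78, FDR 0.423; Insig2 in females, 0.44, FDR 1.0), none passed the FDR, and the median log2 fold change was 0.42 in males and 0.54 in females. Srebf1 encodes the regulator of lipid synthesis that follows insulin, and Insig2 a protein that holds it back. Some pairs within groups were far apart in this list. Fasn, fatty acid synthase, was at 242 and 1613 CPM in male NT-KO 1 and 2, and Pnpla3, a lipid droplet protein, at 1.10 and 22.4, while male WT had 463 and 424 CPM of Fasn and 3.04 and 4.40 of Pnpla3. Between female NT-KO 1 and 2 Pnpla3 differed in the other direction, at 110 and 14.2 CPM. The part of feeding state in the clock values was not tested.

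Markers of red cells were high in the male WT libraries. All 5 erythroid markers were tested and none was at 0, and Hbb-bs, a beta globin, was the most abundant. Their summed level was 1025 and 481 CPM in WT males, 403 and 401 in NT-KO males, 201 and 195 in WT females, and 347 and 184 in NT-KO females. It was thus highest in WT males, and among females highest in female NT-KO 1, with none of the 5 past the FDR for NT-KO vs WT in either sex, 2 lower in NT-KO males at an unadjusted p under 0.05, and 2 past the FDR between the sexes, where 7.84% of all genes passed (Alas2, log2 fold change -3.22, FDR 0.000248; Hbb-bt, -1.10, FDR 0.0497). The B cell receptor subunit Cd79a was at 0.535 and 0.307 CPM in WT males, 0.595 and 0.619 in NT-KO males, 2.30 and 2.08 in WT females, and 0.837 and 1.36 in NT-KO females. Its partner Cd79b ran from 0.307 to 0.784 CPM in males, and stood at 2.14 and 2.16 in WT females and 0.97 and 1.85 in NT-KO females. Both were higher in females over both genotypes, with log2 fold changes of 1.60 (FDR 0.0115) and 1.84 (FDR 0.0108). NT-KO vs WT, Cd79a had log2 fold changes of 0.50 in males (FDR 0.682) and -0.99 in females (FDR 1.0), and Cd79b 0.73 (FDR 0.591) and -0.60 (FDR 1.0). Both were opposite in sign between the sexes, as in Per3. All 4 B cell markers were lower in NT-KO females. Of these, 2 passed an unadjusted p under 0.05, Cd79a included, where 1.55% of all genes did. In NT-KO males all 4 were higher, none at that p. The 4 T cell markers summed to 0.516 to 3.51 CPM and were not tested. Markers of Kupffer cells summed to 134 to 298 CPM, of sinusoidal endothelium to 83.7 to 145, of stellate cells to 186 to 279, of cholangiocytes to 4.43 to 7.88 and of neutrophils to 1.25 to 7.61. None of these passed the FDR for NT-KO vs WT in either sex, and between the sexes Epcam of the cholangiocyte list (1.12, FDR 0.0377) and Apoc3 of the hepatocyte list (0.66, FDR 0.0401) were higher in females. Of the 4 endothelial markers, 1 was lower in NT-KO at an unadjusted p under 0.05 in each sex. It was Lyve1, with log2 fold changes of -0.72 in males and -0.64 in females. Of the same 4, 3 were higher in NT-KO males and 1 in NT-KO females. The part of blood or lymphocyte RNA in the clock values was not tested.

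The genes most like Arntl, Nr1d1 and Per2 over the 8 libraries were sought by likeness among the 9421 genes whose mean reached 5 CPM, using Pearson's r of log2 CPM. The 8 libraries fall into 4 groups, so the points are not independent and r carries no p. For Arntl the 5 highest were Pde9a (0.991), Tmem199 (0.987), Rai14 (0.98), Slc22a7 (0.978) and Diaph1 (0.966), and the 5 lowest Ino80c (-0.978), Phldb2 (-0.968), 3830406C13Rik (-0.965), Ube2e2 (-0.963) and H2-K2 (-0.961). Slc22a7, a transporter of organic anions, ranged from 31.0 to 153 CPM and Pde9a, a cyclic GMP phosphodiesterase, from 5.76 to 22.2. For Nr1d1 the 5 highest were Cdc42ep4 (0.986), Lyz2 (0.962), Gm45909 (0.947), Ahr (0.938) and Aptx (0.937), and the 5 lowest Fbxl14 (-0.979), Rnd3 (-0.97), Slc45a3 (-0.966), Hbb-bs (-0.96) and Hhex (-0.958). Slc45a3 was also among the rhythmic outputs, and Hbb-bs among the erythroid markers. For Per2 the highest were Shb (0.964), Ovca2 (0.963), Prr13 (0.948), Ciz1 (0.947) and Cdk16 (0.946), and the lowest Ppp2r3a (-0.982), Pdcd6 (-0.96), Magi3 (-0.955), Adcy9 (-0.951) and Reln (-0.95). No gene was on more than 1 of these lists.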

How the data were processed

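RNA was extracted from liver with Trizol and libraries were made with the Illumina TruSeq RNA kit. Per the submitters' processing notes and the study's methods, the authors checked reads with FastQC, trimmed them with cutadapt, aligned them to GRCm38 with STAR 2.6.1a and then ran featureCounts against Ensembl gene models. The deposited values are whole-number counts without normalization. The strand setting is not given in the sources used here. Of 49671 IDs, 49412 matched the annotation used for names. Replicates differed by more than counting noise (chi-square per degree of freedom from 112 to 278), so none was merged.

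With R 4.3.3, edgeR 4.0.16 and limma 3.58.1, a gene was kept if 2 or more libraries reached 1 CPM, and rRNA, miRNA and mitochondrial genes were removed, which left 13117 genes and 91.8 to 92.9% of the counts. All 8 libraries entered 1 quasi-likelihood fit with a mean per group, TMM factors (0.921 to 1.055) and Benjamini-Hochberg adjustment over all genes. The SE is the size of the log2 fold change divided by the square root of F. The labels do not say that replicates are separate animals, so p-values measure the spread between these samples, and an exact permutation test of 2 libraries against 2 cannot go below a two-sided p of 0.333. Counting intervals and floors cover counting error only. log2 CPM used a prior count of 2. The fit was also run on simulated data, with no result of that given here.

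The members and lists were chosen with earlier results of these data known. Named are all members, Lbr, list genes past the FDR in a comparison with at most 4 of the smallest p in either sex, and the 5 most and 5 least alike genes. A gene that the rule also names is not reported here. Alternatives were the likelihood ratio test, DESeq2 1.42.0, RLE factors, library size only, no filter, filterByExpr, robust dispersion, a replicate block within sex, 1 sex alone and each library left out.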

Additional observations from a re-analysis of the deposited data

Results flagged for a closer look

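The NT-KO vs WT change of 3 clock members went in opposite directions in the sexes with no overlap between genotypes in either, as did 6.66% of all genes. For Arntl the difference between the sexes was 2.26 on the log2 scale (interaction contrast of edgeR's quasi-likelihood test, FDR 0.573), with both NT-KO libraries below both WT libraries in males and above them in females. For Clock it was 0.86 (FDR 0.626), in the same directions, though the female change was small. That change was 0.15, and 0.04 without female NT-KO 1. For Per3 it was -0.66 (FDR 0.573), with NT-KO above WT in males and slightly below it in females. None passed the FDR, and for Arntl the difference was 1.56 without female NT-KO 1. The female separation of Arntl was narrow: female NT-KO 2 was at 0.729 CPM (44 counts) and female WT 1 at 0.673 CPM (34 counts).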

How the results depend on the processing

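Of 593 log2 fold changes of members recomputed under other settings, 579 kept their direction and 14 did not. Of these 14, 12 came with a library left out, and the cause was not tested. Many of the 593 could hardly turn, so the count does not measure robustness. The likelihood ratio test and robust dispersion change the test and hardly the fold change. Leaving out a male library hardly moved the female NT-KO vs WT values, nor a female library the male ones. Members past the FDR in males numbered 0 by the quasi-likelihood test, 1 by the likelihood ratio test, 3 by DESeq2 and 5 without the filter. The SEs of the fit without the filter followed each gene's own spread less, which limits its calls in every comparison. Between the sexes' NT-KO effects they numbered 0, and 4 without the filter. For female vs male they numbered 3, 4 by the likelihood ratio test or with library size only, and 5 by DESeq2 or without the filter, while the share of all genes called went from 7.84% to 13.4%, 11.6%, 14.1% and 9.16% in that order of settings. With a library left out, the female vs male log2 fold change ranged from -2.05 to -1.46 for Arntl, -1.03 to -0.74 for Clock and 0.82 to 0.83 for Per3.

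With the replicate block Per1 in females turned from -0.03 to 0.17, and with library size only Nr1d2 for female vs male turned to 0.02. The other reversals came with a library left out. The female range was then -0.62 to 0.99 for Per1, -0.46 to 0.24 for Per2, -0.62 to 0.05 for Dbp, -0.64 to 0.06 for Nr1d1 and -0.55 to 0.12 for Nr1d2. The difference between the sexes ranged from -1.02 to 0.59 for Per1 and -0.02 to 0.68 for Per2, and female vs male from -0.29 to 0.51 for Per1, -0.11 to 0.26 for Per2 and -0.29 to 0.04 for Nr1d2. The turns came without female WT 1 or female NT-KO 2 for Per1 in females, without female NT-KO 2 for Per2 in females, without female WT 1 for the other values of Per1, without male WT 1 or female NT-KO 1 for Per2 for female vs male, and without female NT-KO 1 for the rest. Library size only also moved the median of all genes for female vs male to 0.125, with 1171 genes higher and 347 lower in place of 540 and 488. Arntl, Clock and Per3 still passed there, as did Dbp.

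The limb difference, whose alternative without Npas2 was chosen after seeing the data, kept its sign with Arntl alone against Dbp alone (2.30 in males, -1.05 in females, -3.35 between the sexes' effects, 2.26 for female vs male) and without Npas2 (1.53, -0.59, -2.12 and 1.65). With Cry1 in the negative limb the difference between the sexes' effects was -1.11. With a library left out it ranged from 0.98 to 1.32 in males, -0.49 to 0.02 in females, -1.64 to -1.13 between them and 0.92 to 1.18 for female vs male.

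Libraries of the same number did not deviate together in all pairs of groups (r from -0.18 to 0.21), and the labels do not say that the numbers pair them. With a replicate block within sex, members past the FDR numbered 0 in males, 0 in females, 0 between the sexes' effects and 3 for female vs male, where 5.85% of all genes passed. Arntl, at 34 to 236 counts, and Npas2, at 3 to 12, are the members whose depth limits the values most.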
